A study of Mus musculus with 9 samples.

Results

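Sebaceous gland was compared with hair follicle in mouse tail skin, over 14507 genes measured on exon arrays. The comparison used 6 of the 9 arrays of the study: the 3 titled sebaceous glands (SG) and the 3 titled hair follicles (HF). All 6 came from adult, female, wild-type mice on a C57BL6/CBA strain background, of matched age, and no allele, agent or treatment differed between them. Each array held RNA from tail epidermis pieces that were dissected by hand into compartments and then pooled, described as a biological replicate. In the comparison of SG with HF, the remaining 3 arrays, of interfollicular epidermis (IFE) from such mice, served only to estimate the spread. RNA was extracted with a kit for small samples, amplified to cDNA in a whole-transcript reaction and labelled with biotin. No age in weeks and no number of mice per pool is given in the labels. The p-values therefore measure the spread between pooled dissections.

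A sebaceous gland is a lobe of lipid-making cells attached to the upper hair follicle. Its cells, the sebocytes, fill with lipid droplets, die and burst, and so release sebum, a mixture rich in wax esters, sterol esters and triglycerides; the nuclear receptor PPARγ drives their differentiation. The hair follicle is a layered cylinder: matrix cells at its base give rise to the hair shaft and to the inner root sheath, each with its own keratins, and an outer root sheath, which holds the stem cell bulge, surrounds both. Shaft keratins are bundled by keratin-associated proteins. Because gland and follicle are joined by a duct and by the infundibulum, a piece cut by hand can hold cells of both. In such bulk pieces, fewer cells of a type and less RNA per cell cannot be told apart.

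The groups followed the sample titles. The array names in the sample descriptions name another compartment for all 9 arrays: those titled SG are named after the follicle, and those titled HF after interfollicular epidermis. The expression values were checked against the titles. Of the 18 measured sebocyte markers, 15 were higher in the arrays titled SG, beside 1.81% of all genes, and 0 in those titled HF. Of the 9 hair shaft keratins, 6 were higher in the arrays titled HF, beside 3.3% of all genes, and 0 in those titled SG. The array medians lay between 176 and 234 intensity units over all 9 arrays. Across genes, arrays correlated at 0.96 to 0.976 within HF and at 0.921 to 0.942 within SG. SG replicate 3 stood apart: it correlated with HF replicates 1, 2 and 3 at 0.911, 0.93 and 0.913. With SG replicates 1 and 2 it correlated at 0.921 and 0.935. SG replicates 1 and 2 correlated with the HF arrays at 0.857 to 0.889. Each count below that leads a result is therefore also given without SG replicate 3.

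Between gland and follicle, 741 of the 14507 genes changed (5.11%), 262 of them higher in SG (1.81%) and 479 higher in HF (3.3%). A gene was called when its log2 difference was at least 1, a 2-fold change, and its adjusted p was below 0.05 in limma with Benjamini-Hochberg adjustment over all genes. The called differences had a median size of 1.41 on the log2 scale in the SG direction and 1.37 in the HF direction. The follicle had the longer tail: 46 genes were at least 4-fold higher in SG and 91 at least 4-fold higher in HF, and above 16-fold there were 0 and 10. The 3 SG values lay wholly above the 3 HF values for 258 of the 262 genes, and the HF values wholly above the SG values for 477 of the 479. Over all genes, 12.1% had SG wholly above HF and 17.2% the reverse.

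Without SG replicate 3 the counts were 994 changed genes (6.85%), 301 higher in SG (2.07%) and 693 higher in HF (4.78%). Of the 741 calls, 700 were kept and 294 were added. Without both SG replicate 3 and HF replicate 2 there were 1047 calls (7.22%), 363 of them higher in SG (2.5%) and 684 higher in HF (4.71%). The split between directions depended on the scaling: 35.4% of calls were higher in SG on the values as deposited, and 50.1% after quantile normalization or after centring each array on its median. These scalings moved the median log2 difference over all genes from -0.017 to 0.123 and 0.116.

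**Figure D1:**
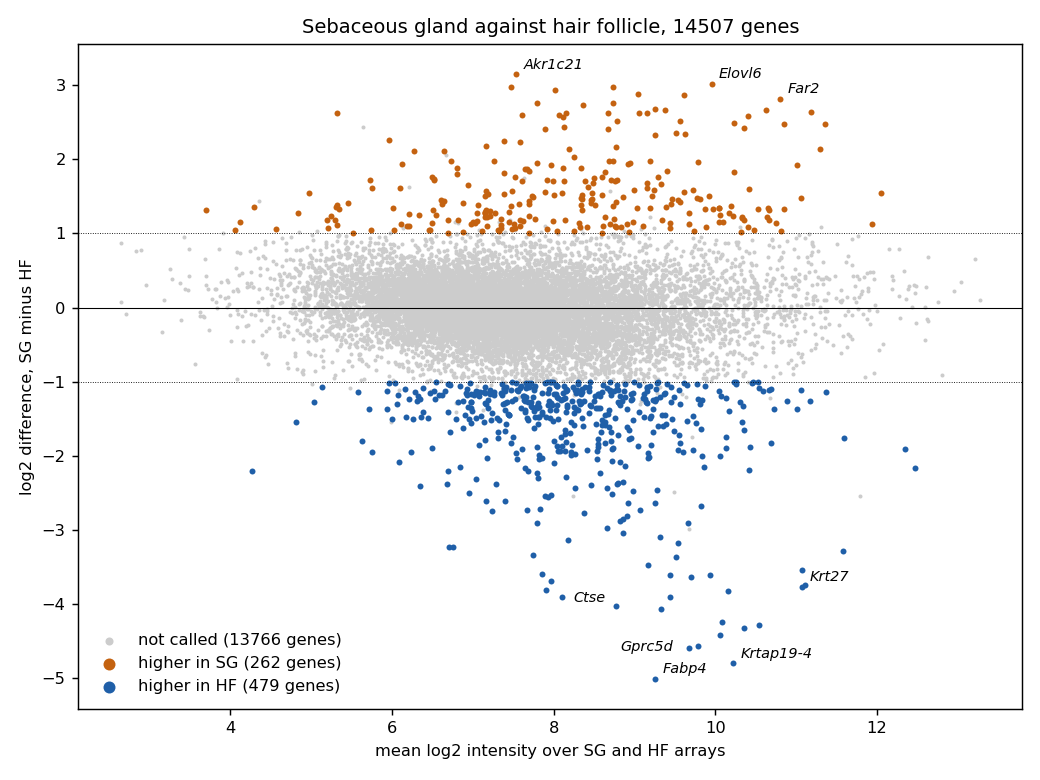
Log2 difference between SG and HF (vertical axis, SG minus HF) against the mean log2 intensity over the 6 arrays (horizontal axis), with 1 point per gene; dotted lines mark a log2 difference of 1 in either direction. The 262 genes higher in SG reach 3.15 for Akr1c21, while the 479 genes higher in HF reach -5.01 for Fabp4.

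The 15 genes with the largest differences in the SG direction were taken among called genes with an official name and groups that did not overlap. They included enzymes that make or modify lipids and steroids, lipid droplet proteins and a fatty acid transporter. Far2, a fatty acyl-CoA reductase that makes the fatty alcohols of wax esters, had log2 intensities of 12.12, 12.53 and 12.00 on the SG arrays and of 9.15, 9.88 and 9.16 on the HF arrays. That is a log2 difference of 2.82 ± 0.29 (SE, n = 3), or 7.06-fold (adjusted p = 0.000307). All 3 SG arrays were high, replicate 3 included. Soat1, which esterifies cholesterol, measured 11.59, 11.33 and 10.25 in SG and 8.00, 8.73 and 7.82 in HF. Its difference was 2.87 ± 0.34 (adjusted p = 0.000561), with the groups apart and SG replicate 3 the lowest of its group. Elovl6, which elongates saturated fatty acids, measured 11.83, 12.16 and 10.40 in SG and 7.96, 9.24 and 8.14 in HF. The difference of 3.02 ± 0.44 was 8.11-fold (adjusted p = 0.00148), and HF replicate 2 was the highest follicle array.

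Fa2h, the fatty acid 2-hydroxylase, stood at 12.41, 12.72 and 12.39 in SG against 9.28, 10.90 and 9.42 in HF, a difference of 2.64 ± 0.35. Plin2, a coat protein of lipid droplets, stood at 11.79, 12.32 and 11.76 against 8.75, 10.09 and 9.04, a difference of 2.67 ± 0.32. For both genes the SG arrays lay close together and HF replicate 2 lay above the other follicle arrays, without reaching the glands. Cidea, which enlarges lipid droplets, stood at 10.72, 10.70 and 10.36 against 7.55, 8.29 and 7.91 (2.68 ± 0.21, adjusted p = 6.73e-05). Cd36, a fatty acid transporter, was 2.76 ± 0.31 higher in SG and Pank1, the first enzyme of coenzyme A synthesis, 2.67 ± 0.32 higher. The remaining genes among the 15 largest rises were Emb (2.98), a membrane glycoprotein, Cyp2g1 (2.97), Aadac (2.93), Acoxl (2.88), Hsd3b6 (2.76), Akr1c13 (2.73) and Akr1c21. Akr1c21, a hydroxysteroid dehydrogenase, had the largest difference, 3.15 ± 0.42, from 9.03, 9.19 and 9.13 in SG and 4.96, 7.12 and 5.82 in HF. Using only each gene's brightest probe set in place of the median, Acoxl turned to -0.50 (adjusted p = 0.207). Cidea dropped to 0.11 (0.822) and Cyp2g1 to 2.06 (0.0552) in this way. Of the probe sets of Acoxl, 16 were higher in SG and 2 in HF. All 8 of Cidea and all 7 of Cyp2g1 were higher in SG. Akr1c13 was 2.62 (0.0804) when the letter that ends each array name was a block in the model. The labels do not give the meaning of this letter. SG replicate 1 and HF replicate 1 each had a letter of their own. The letter block therefore set only SG replicates 2 and 3 against HF replicates 2 and 3. These include SG replicate 3, which stood apart from the other glands.

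**Figure D2:**
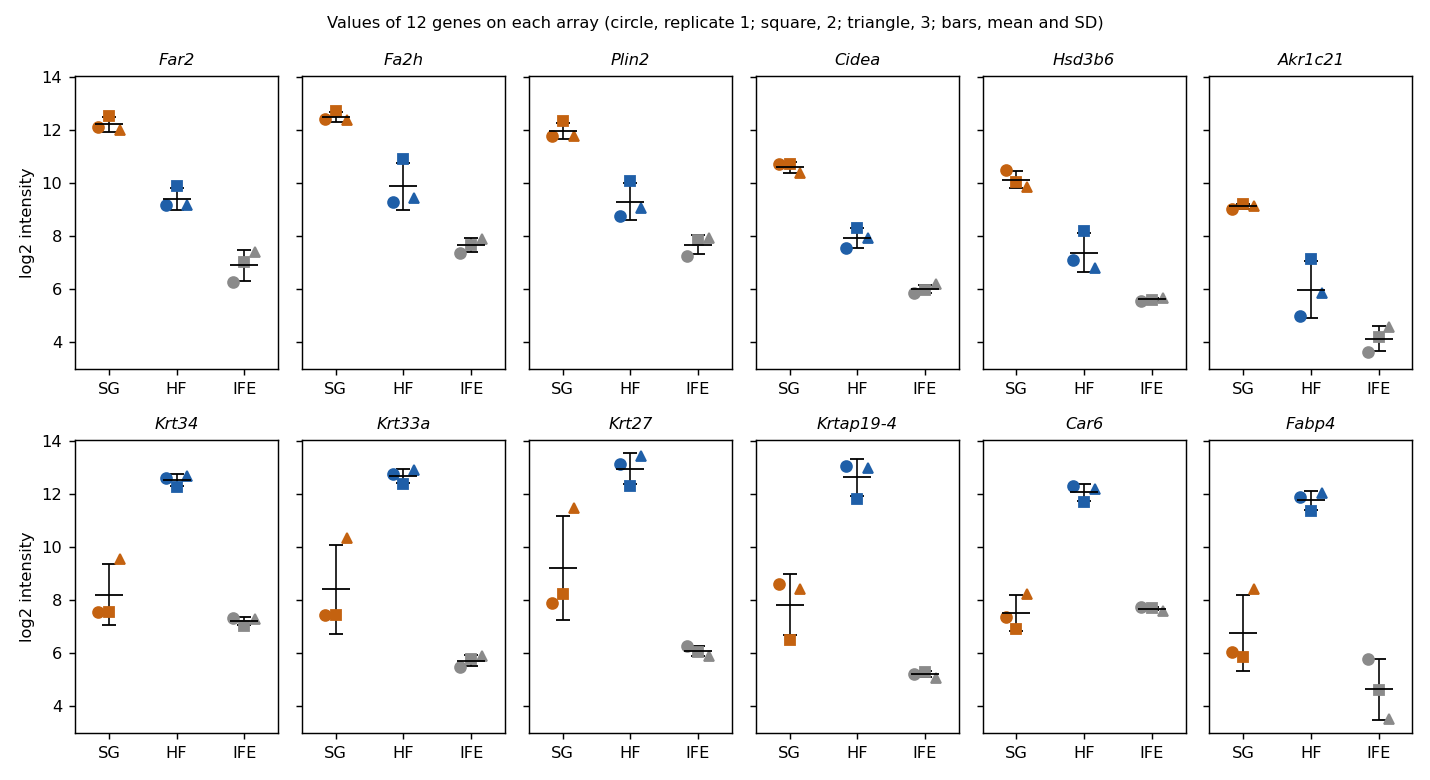
Log2 intensity (vertical axis) of 12 genes on each SG, HF and IFE array, with circles, squares and triangles for replicates 1, 2 and 3 and bars for the mean and SD. The upper row shows genes higher in SG, where Far2 lies between 12.00 and 12.53 in SG and between 9.15 and 9.88 in HF; the lower row shows genes higher in HF, where the SG triangle lies above the other SG points for Krt34, Krt33a, Krt27, Car6 and Fabp4.

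Sebocyte markers were the list with the largest share of calls in the SG direction: 15 of 18 higher in SG, 0 higher in HF, with a median log2 difference of 1.63 against -0.017 for all genes; the counts were also 15 and 0 without SG replicate 3. Pparg measured 9.95, 9.64 and 8.51 in SG and 6.72, 6.80 and 6.78 in HF. The difference was 2.60 ± 0.30, or 6.07-fold (adjusted p = 0.000515), with SG replicate 3 lowest in its group and still above every follicle array. Mgll, a monoglyceride lipase, measured 11.98, 12.24 and 12.03 against 9.30, 10.06 and 9.46, a difference of 2.47 ± 0.22 (adjusted p = 0.000168). Its 3 gland values lay close together, well above the follicle's. Also called in this list were Mc5r (1.68), the melanocortin receptor of exocrine glands, Elovl3 (1.59), Fasn (1.18) and Apoc1 (1.16), which are named here after their values were seen. The 3 members not called were Prdm1 (-0.82, adjusted p = 0.0225, short of the 2-fold threshold), Dgat2 (-0.39) and Gal (-0.16).

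Of 30 measured genes of fatty acid synthesis, elongation and desaturation, 13 were higher in SG and 3 higher in HF (53.3% called). Over all genes 5.11% were called. Without SG replicate 3 the numbers were 14 and 4. Scd3, a stearoyl-CoA desaturase, measured 10.14, 9.24 and 10.19 in SG and 7.36, 8.34 and 7.38 in HF (2.16 ± 0.30). Scd1, its close relative, measured 12.69, 13.01 and 12.78 against 11.14, 11.61 and 11.07 (1.55 ± 0.21). Both desaturases were higher on every gland array than on any follicle array, though probes of near-identical family members may share signal. The members higher in HF were these 3: Fads3, of the front-end desaturase family, was -2.30 ± 0.24, Acsl3, which activates long-chain fatty acids, -1.99 ± 0.26, and Scd2, a desaturase, -1.25 ± 0.31. Fads3 measured 6.45, 6.47 and 7.04 in SG and 9.10, 8.48 and 9.29 in HF. On the brightest probe set Fads3 dropped to -0.30 (adjusted p = 0.266) and Scd1 stood at 0.94. All 16 probe sets of Fads3 were higher in HF. Of the 10 of Scd1, 9 were higher in SG and 1 in HF. The call of Scd2 was lost without SG replicate 1, SG replicate 2 or any 1 HF array (adjusted p up to 0.0947).

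Of 20 enzymes of wax, sterol and triglyceride esters, 5 were higher in SG and 1 in HF (30% called). The share over all genes was 5.11%, and without SG replicate 3 the counts were 5 and 3. The list median was -0.16, close to the -0.017 of all genes, beside 2.82 for Far2 and 2.87 for Soat1. The follicle count was 2 without IFE replicate 1 or IFE replicate 3. Dgat1, which makes triglycerides, measured 9.97, 8.96 and 8.70 in SG and 7.55, 7.94 and 7.76 in HF (1.46 ± 0.29, adjusted p = 0.00809). Awat2, the wax ester synthase, measured 7.74, 6.95 and 7.53 against 6.34, 6.20 and 6.12 (1.18 ± 0.20, adjusted p = 0.00372). Of its 8 probe sets 7 were higher in SG, 2 of them called, and 1 was higher in HF. On the brightest one alone the difference was -0.11 (adjusted p = 0.778). Lpin3, a phosphatidate phosphatase, was -1.36 ± 0.20, and -0.30 on the brightest probe set (adjusted p = 0.392). With the array-name letter as a block the adjusted p was 0.061 for Dgat1 and 0.0644 for Awat2.

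Lipid droplet coats and lipases had 21.1% of 19 members called, beside 5.11% of all genes. Of these, 3 were higher in SG (Mgll, Plin2 and Cidea) and 1 in HF, with 3 and 1 without SG replicate 3. That one was Lipe, the hormone-sensitive lipase, at 6.96, 6.35 and 6.22 in SG and 7.71, 7.55 and 8.11 in HF (-1.28 ± 0.24, adjusted p = 0.00583). After quantile normalization or median centring 5 droplet genes were higher in SG, and on the brightest probe set Lipe stood at -0.27 (adjusted p = 0.469). Among 21 PPAR receptors and targets (38.1% called), 7 were higher in SG and 1 in HF, and 8 and 1 without SG replicate 3. Lpl, lipoprotein lipase, measured 7.90, 7.82 and 7.39 in SG and 4.89, 6.18 and 5.70 in HF (2.11 ± 0.29); on the brightest probe set it was 0.55 (adjusted p = 0.201). The exception in HF was Fabp4, a fatty acid binding protein known from adipocytes and itself a PPARγ target.

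Peroxisomes shorten very long and branched fatty acids and make ether lipids. Of 30 peroxisomal genes, 9 were higher in SG and 1 in HF (33.3% called, beside 5.11% of all genes), with a median of 0.66. The counts were 11 and 2 without SG replicate 3, and 5 were higher in SG without SG replicate 2. Cat, catalase, measured 10.41, 10.59 and 9.99 in SG and 8.02, 9.11 and 8.33 in HF (1.84 ± 0.28, adjusted p = 0.00193). Scp2, which carries sterols and thiolyses branched acyl-CoA, measured 9.64, 9.89 and 9.39 against 8.20, 7.93 and 7.61 (1.72 ± 0.25). Both genes had all gland arrays above all follicle arrays. Acox3 (1.59 ± 0.25), an oxidase of branched acyl-CoA, and Pex11a (1.55 ± 0.28), which divides peroxisomes, were also called, with an adjusted p of 0.0706 and 0.0666 under the letter block. Crot, which moves shortened acyl groups out of peroxisomes, went the other way at -1.58 ± 0.28.

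Of 23 genes of cholesterol synthesis and uptake, 4 were higher in SG (Hmgcs1, Msmo1, Nsdhl and Mvd) and 1 in HF (Npc1). The share called was 21.7%, beside 5.11% of all genes. The SG count was 7 without SG replicate 3, 9 without HF replicate 2, 8 after quantile normalization or median centring, and 0 with the letter block. The HF count was 0 without SG replicate 2 or HF replicate 2, and 2 without SG replicate 3 or HF replicate 1. Msmo1, a sterol methyl oxidase, measured 11.53, 11.46 and 10.65 in SG and 9.21, 10.25 and 9.40 in HF (1.60 ± 0.30, adjusted p = 0.00573). Hmgcs1, the synthase ahead of HMG-CoA reductase, measured 12.51, 12.72 and 12.29 against 11.22, 11.56 and 11.36 (1.13 ± 0.20). The mitochondrial citrate carrier Slc25a1, which supplies cytosolic acetyl-CoA, was higher in SG as well, at 10.44, 10.53 and 9.84 against 8.73, 9.11 and 8.62 (1.45 ± 0.27, adjusted p = 0.00621, and 0.124 with the letter block).

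Steroid enzymes and hormone receptors had 7 of 31 members higher in SG and 1 in HF (25.8% called, beside 5.11% of all genes). The counts were also 7 and 1 without SG replicate 3. Without SG replicate 2 the SG count was 4. Hsd3b6, a hydroxysteroid dehydrogenase of steroid synthesis, measured 10.48, 10.02 and 9.85 in SG and 7.10, 8.19 and 6.80 in HF (2.76 ± 0.31, adjusted p = 0.000416). Hsd17b14, which oxidizes hydroxysteroids, was the member higher in HF (-1.47 ± 0.28), at 6.66, 6.66 and 7.79 in SG and 8.42, 8.40 and 8.70 in HF, with an adjusted p of 0.0541 under the letter block. In the order of genes along the GRCm38.p6 chromosomes, 4 neighbouring aldo-keto reductase genes, Akr1c18, Akr1c13, Akr1c19 and Akr1c12, were all higher in SG, by 1.06 to 2.73. This was the 1 run of 3 or more neighbouring genes called in the SG direction, among 14472 genes placed. Akr1c12 had the smallest difference of the run, and its call was lost without SG replicate 2 (0.855). Members of this family are similar in sequence, so their probes may share signal.

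Of 34 glutathione and xenobiotic enzymes, 5 were higher in SG and 1 in HF (17.6% called, beside 5.11% of all genes). Without SG replicate 3 the counts were 4 and 3, and the HF count was 2 without SG replicate 1 or HF replicate 1. Mgst1, a microsomal glutathione transferase, measured 11.62, 11.91 and 10.89 in SG and 8.56, 9.57 and 8.81 in HF (2.50 ± 0.39). Gsta3 was 2.43 ± 0.45 and Gsta4, which conjugates products of lipid peroxidation, 1.97 ± 0.32 higher in SG. Txnrd1, thioredoxin reductase, was 1.27 ± 0.25 higher in HF, and -0.962 with the letter block (adjusted p = 0.0947). Of 29 retinoid genes (17.2% called), 4 were higher in SG and 1 in HF (5 and 1 without SG replicate 3), with a median of 0.01. The 4 were dehydrogenases: Aldh1a7 (2.25 ± 0.34), Rdh11 (2.14 ± 0.40), Rdh9 (1.43 ± 0.26) and Rdh1 (1.34 ± 0.24). Aldh1a3, which makes retinoic acid, was the member higher in HF (-1.12 ± 0.25), a call lost without SG replicate 2 or HF replicate 2 (adjusted p up to 0.0656). With the letter block, 0 members of the glutathione list and 1 of the retinoid list were called in the SG direction.

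**Figure D3:**
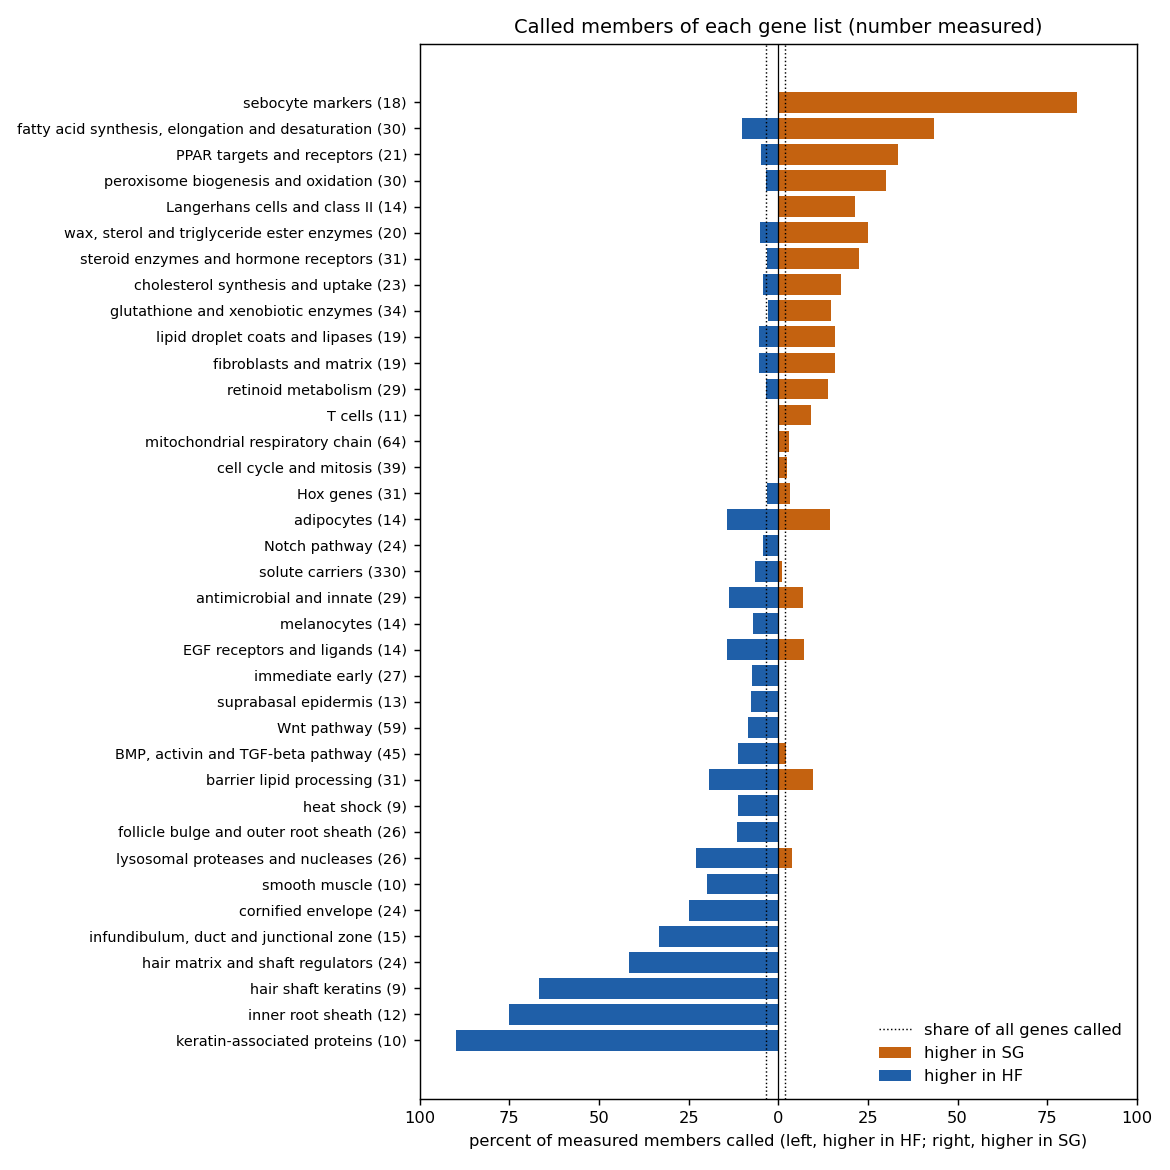
Percent of each gene list's measured members called higher in SG (right) or in HF (left), with the number measured in brackets; dotted lines mark the share of all genes called in each direction. Sebocyte markers reach 15 of 18 on the right, and keratin-associated proteins 9 of 10 on the left.

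In the follicle direction the largest differences were those of hair keratins, keratin-associated proteins and a few other follicle genes. Of the 9 hair shaft keratins, 6 were higher in HF and 0 in SG, with a median of -2.99; without SG replicate 3 it was 8 and 0, with a median of -4.43. Krt34 measured 7.52, 7.53 and 9.53 in SG and 12.60, 12.27 and 12.70 in HF (-4.33 ± 0.42, 20.1-fold, adjusted p = 0.000232). Krt33a measured 7.42, 7.44 and 10.34 against 12.77, 12.38 and 12.91 (-4.28 ± 0.59). Krt31 measured 7.05, 6.56 and 10.30 against 12.34, 11.94 and 12.35 (-4.24 ± 0.70). In all 3 acidic shaft keratins the follicle arrays lay close together, and SG replicate 3 lay between the other gland arrays and the follicle. Krt39 (-4.03 ± 0.58) and Krt83 (-2.91 ± 0.32), a basic shaft keratin, were called too.

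The keratins Krt82 and Krt32 missed the threshold at an adjusted p of 0.0504 and 0.0528. Krt82, a cuticle keratin, measured 6.25, 7.22 and 11.06 in SG and 11.16, 11.14 and 11.22 in HF. Krt32, a cuticle keratin as well, measured 7.09, 6.95 and 10.69 against 10.74, 10.68 and 10.80. SG replicate 3 was at the follicle's level for both, and without it the differences were -4.43 (adjusted p = 1.7e-06) and -3.72 (adjusted p = 5.62e-07). Krt84 was not called, at 11.02, 10.94 and 12.13 in SG and 11.59, 12.46 and 11.62 in HF. These 3 genes are named as the list's members that were not called.

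Of 12 inner root sheath genes, 9 were higher in HF and 0 in SG (75% called, beside 5.11% of all genes). Their median was -2.99, and without SG replicate 3 the counts were 11 and 0. Krt72 measured 6.74, 6.51 and 8.63 in SG and 11.72, 10.75 and 11.60 in HF (-4.06 ± 0.45, adjusted p = 0.000421). Krt71, whose mutation gives wavy coats in mice, measured 8.09, 8.62 and 11.20 against 13.14, 12.28 and 13.13 (-3.54 ± 0.61). Krt73 (-3.61 ± 0.61), the neighbour of both on the chromosome, and Krt27 (-3.77 ± 0.71), an acidic sheath keratin, were called as well. Padi3, which converts arginine to citrulline in sheath and medulla proteins, was -2.44 ± 0.37, and Tchhl1, a relative of trichohyalin, -3.69 ± 0.38. On the brightest probe set Tchhl1 stood at -0.25 (adjusted p = 0.5). HF replicate 2 was the lowest follicle array for Krt71 and Krt72.

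Of 10 keratin-associated proteins, 9 were higher in HF and 0 in SG (90% called, beside 5.11% of all genes). Their median was -2.73, and the counts were the same without SG replicate 3. Krtap19-4 measured 8.59, 6.48 and 8.39 in SG and 13.06, 11.82 and 12.99 in HF, a difference of -4.80 ± 0.48 or 27.9-fold (adjusted p = 0.000261). Krtap13-1 measured 6.73, 7.00 and 9.81 against 12.31, 11.98 and 12.52 (-4.43 ± 0.61). Krtap5-4 measured 5.28, 5.50 and 7.21 against 9.80, 9.83 and 9.80 (-3.81 ± 0.39). For these 3 genes the gland arrays differed among themselves more than the follicle arrays did, and SG replicate 3 was not the highest gland array for Krtap19-4. Krtap21-1 and Krtap6-1 had smaller differences, -2.17 ± 0.29 and -1.91 ± 0.26, with 11.55, 11.03 and 11.61 in SG and 14.01, 12.80 and 13.88 in HF for Krtap21-1. Krtap26-1 measured 6.35, 5.58 and 10.53 against 11.40, 11.21 and 11.58. Its call was lost without SG replicate 1, SG replicate 2, HF replicate 1 or HF replicate 3 (adjusted p up to 0.0819), and its difference was -5.43 without SG replicate 3. Copies within these families are near-identical in part, so probes may share signal. With at least 4 probe sets required per gene, 2 keratin-associated proteins were called.

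Genes called in the HF direction lay next to each other in 7 runs of 3 or more neighbours, 25 genes in all. The longest run held 7 genes, Krt23, Krt39, Krtap4-13, Krtap31-1, Krt33a, Krt34 and Krt31, with differences from -4.33 to -1.95. The promoter windows of 6 members are shown because the genes lie together and were called together. No promoter window was available for Krt33a. Far2 and Soat1, from the largest differences in the SG direction, are shown beside them. Each window is the 100 bases before the start site in RefSeq (GRCm38.p6), 5′ to 3′ on the gene's strand, with the letters TATAAA in capitals where they occur. Krt23 is at chr11:99493121-99493220 (minus strand), Krt39 at chr11:99521339-99521438 (minus), Krtap4-13 at chr11:99809897-99809996 (minus), Krtap31-1 at chr11:99907820-99907919 (plus), Krt34 at chr11:100041555-100041654 (minus), Krt31 at chr11:100050552-100050651 (minus), Far2 at chr6:148047316-148047415 (plus) and Soat1 at chr1:156474329-156474428 (minus).
Krt23: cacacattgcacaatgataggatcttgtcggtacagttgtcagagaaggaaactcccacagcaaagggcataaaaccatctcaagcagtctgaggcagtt
Krt39: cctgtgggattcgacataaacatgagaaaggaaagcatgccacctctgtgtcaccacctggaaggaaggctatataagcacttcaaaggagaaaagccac
Krtap4-13: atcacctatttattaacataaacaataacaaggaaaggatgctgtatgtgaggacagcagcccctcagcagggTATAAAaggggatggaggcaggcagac
Krtap31-1: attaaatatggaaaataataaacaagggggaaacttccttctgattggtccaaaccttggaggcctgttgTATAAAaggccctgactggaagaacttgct
Krt34: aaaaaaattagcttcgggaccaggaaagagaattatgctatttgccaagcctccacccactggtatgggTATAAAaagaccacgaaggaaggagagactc
Krt31: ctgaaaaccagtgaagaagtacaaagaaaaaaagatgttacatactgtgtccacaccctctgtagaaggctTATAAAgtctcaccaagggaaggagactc
Far2: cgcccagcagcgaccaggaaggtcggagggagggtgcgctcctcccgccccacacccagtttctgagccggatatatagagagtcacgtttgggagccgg
Soat1: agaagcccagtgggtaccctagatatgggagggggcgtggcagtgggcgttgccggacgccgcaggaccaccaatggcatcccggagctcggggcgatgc

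Of the 6 follicle windows 4 held TATAAA, which began 27 bases before the start in Krtap4-13, 30 in Krtap31-1, 31 in Krt34 and 29 in Krt31. The windows of Krt23 and Krt39, like those of Far2 and Soat1, held none. Of the 14507 genes, 11623 had a promoter in the RefSeq table, and 641 of these (5.51%) held TATAAA on either strand. Among keratin-associated proteins 8 of 10 held it (80.0%), among hair shaft keratins 3 of 6, among inner root sheath genes 5 of 11 and among sebocyte markers 1 of 11. Over all called genes, 37 of 375 windows in the HF direction (9.87%) and 12 of 210 in the SG direction (5.71%) held it. The median GC content was 46.0% for keratin-associated protein windows, 67.0% for sebocyte marker windows and 62.0% for all. A further 4 motifs were searched on both strands. The direct repeat that PPAR and RXR bind, AGGNCA repeated after 1 free base, was in 0 windows of either direction and in 18 of all windows (0.155%). CCAAT was in 60 of 210 (28.6%) and 77 of 375 (20.5%), against 24.5% of all windows. CACGTG was in 3.81% and 4.0% against 4.86%, and CTTTGAT in 1.9% and 1.6% against 1.06%. A match describes letters in these windows and is not a binding site.

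Regulators of the hair matrix and shaft had 10 of 24 members higher in HF and 0 in SG, with a median of -0.9. The share called was 41.7%, beside 5.11% of all genes. Without SG replicate 3 the counts were 14 and 0. Gprc5d, an orphan receptor of the shaft cortex, measured 6.50, 6.02 and 9.61 in SG and 12.14, 11.61 and 12.16 in HF (-4.59 ± 0.68, 24.1-fold, adjusted p = 0.00165). Prr9 measured 7.14, 7.60 and 8.89 against 11.61, 11.08 and 11.84 (-3.63 ± 0.37). Bmp4, a ligand of the pathway that acts in shaft differentiation, measured 5.41, 5.40 and 7.40 against 9.56, 8.76 and 9.92 (-3.34 ± 0.46, adjusted p = 0.00114). All 3 had the gland arrays below the follicle arrays, with SG replicate 3 the highest gland array. The transcription factors Dlx3 (-2.03 ± 0.38) and Ovol1 (-1.83 ± 0.27) were called as well. Msx2 (-3.17), Foxn1 (-1.93) and the desmoglein Dsg4 (-3.61), named after their values were seen, were higher in HF too. Hoxc13, a regulator of hair keratins, was called at -1.42 ± 0.40, a call lost without any 1 other array than SG replicate 3 (adjusted p up to 0.174); its SG value was 8.89 in replicate 3 and 7.11 and 7.18 in the others. S100a3, named after its values were seen, was not called (adjusted p = 0.0742): it measured 8.89, 9.50 and 13.16 in SG and 13.39, 12.58 and 13.21 in HF.

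Among the remaining largest falls, Fabp4 measured 6.02, 5.83 and 8.41 in SG and 11.88, 11.35 and 12.05 in HF. The difference of -5.01 ± 0.65, or 32.2-fold (adjusted p = 0.000821), was the largest of all genes. Its level in interfollicular epidermis averaged 4.62. Adipoq, an adipocyte hormone, measured 8.18, 8.59 and 8.80 in SG and 8.87, 8.11 and 8.20 in HF, with overlapping groups. The differences of the adipocyte markers Plin1 (0.05), Cfd (-0.07) and Retn (-0.13), named after their values were seen as was Adipoq, were smaller than their standard errors. Among the list's called members Lipe was -1.28, in the direction of Fabp4, and Lpl (2.11) and Gpd1 (1.27) went the other way. The 14 adipocyte markers summed to 2447 to 2824 intensity units in SG and 4692 to 6358 in HF. Fabp4 alone, at log2 values of 11.35 to 12.05 in HF, made up most of the HF sum. The list's median log2 difference was 0.12, so the sums do not describe the other members. Car6, a secreted carbonic anhydrase, measured 7.36, 6.91 and 8.23 against 12.30, 11.70 and 12.20 (-4.57 ± 0.29, adjusted p = 3.6e-05). Ctse, an endosomal aspartic protease, measured 5.54, 5.60 and 7.32 against 10.24, 9.56 and 10.38 (-3.91 ± 0.41). Vsig8 measured 6.51, 6.57 and 11.65 against 12.06, 12.07 and 12.07 (-3.82 ± 1.02, adjusted p = 0.0351). Its call was lost without SG replicate 1, SG replicate 2, any 1 HF array or IFE replicate 2 (adjusted p up to 0.143); without SG replicate 3 the difference was -5.53.

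Markers of the bulge and outer root sheath differed less than those of shaft and inner sheath. Of 26, 3 were higher in HF and 0 in SG (11.5% called, beside 5.11% of all genes), with a median of -0.21. Without SG replicate 3 it was 5 and 1. Krt75, the companion layer keratin, measured 7.15, 8.58 and 7.91 in SG and 9.50, 9.46 and 9.54 in HF (-1.62 ± 0.30, adjusted p = 0.00528). Krt16 measured 9.55, 8.95 and 9.96 against 11.03, 11.92 and 11.16 (-1.88 ± 0.29). Krt17 was -1.11 ± 0.28, a call lost without SG replicate 1, SG replicate 2, HF replicate 2 or HF replicate 3 (adjusted p up to 0.0963). The stem cell genes Lgr5 (-0.43), Sox9 (-0.29), Lhx2 (-0.29) and Cd34 (-0.12), named after their values were seen, were not called.

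Of 15 genes of the infundibulum, duct and junctional zone, 5 were higher in HF and 0 in SG (33.3% called, beside 5.11% of all genes). Without SG replicate 3 it was 6 and 0. The HF count was 3 without SG replicate 2, HF replicate 2 or HF replicate 3. The kallikreins, serine proteases that cut the junctions between cornified cells, led the list. Klk6 measured 7.12, 7.58 and 8.35 in SG and 8.99, 10.57 and 9.71 in HF (-2.08 ± 0.40). Klk7 measured 9.37, 9.36 and 10.62 against 11.50, 11.73 and 11.60 (-1.82 ± 0.29). Klk10 measured 9.18, 8.28 and 9.51 against 10.23, 10.78 and 10.62 (-1.55 ± 0.29). HF replicate 2 was the highest of the SG and HF arrays for all 3. On the brightest probe set Klk7 was -0.72 (adjusted p = 0.068) and Klk10 -0.97, short of the threshold. Krt79, the duct keratin, named after its values were seen, was not called at 0.42 ± 0.35.

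Cornification genes were higher in HF where they were called. Of 24 cornified envelope genes, 6 were higher in HF and 0 in SG (25% called, beside 5.11% of all genes). Without SG replicate 3 the counts were 7 and 0. Cnfn, cornifelin, measured 8.39 to 8.67 in SG and 9.99 to 10.26 in HF (-1.59 ± 0.16, adjusted p = 0.000288). Tgm1, which crosslinks the envelope, measured 8.22, 7.31 and 8.98 against 10.33, 9.88 and 10.36 (-2.02 ± 0.33). Their means in interfollicular epidermis were 10.91 and 10.74. Lor, loricrin, named after its values were seen, was not called (0.01 ± 0.23). Of 13 suprabasal genes, 1 was higher in HF, the protease Asprv1 (-1.60 ± 0.17), with the same count without SG replicate 3. This share of 7.69% called is near the 5.11% of all genes. In the SG direction 3 were called without HF replicate 2, and 4 without HF replicate 2 and SG replicate 3.

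Barrier lipid genes went both ways. Of 31, 3 were higher in SG and 6 in HF (29% called, beside 5.11% of all genes). Without SG replicate 3 the counts were 7 and 7, beside 2.07% and 4.78% of all genes. The SG count was 5 without HF replicate 2, and the HF count was 3 without SG replicate 2 or HF replicate 3. Cers4, a ceramide synthase, measured 11.95, 11.78 and 10.98 in SG and 8.78, 9.80 and 8.87 in HF (2.42 ± 0.30, adjusted p = 0.000629). Ugcg, which glucosylates ceramide for lamellar bodies, measured 6.53, 6.27 and 7.25 against 8.98, 8.75 and 9.03 (-2.24 ± 0.28). Abca12, the transporter that loads those bodies, was -1.67 ± 0.22. Elovl4, which makes very long acyl chains, was 1.31 ± 0.22 higher in SG, but 0.47 on the brightest probe set (adjusted p = 0.171).

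Of 26 lysosomal proteases and nucleases, 6 were higher in HF and 1 in SG (26.9% called, beside 5.11% of all genes). The counts without SG replicate 3 were 6 and 1. Ctsl, cathepsin L, whose loss disturbs hair cycling in mice, measured 10.31, 10.60 and 11.26 in SG and 12.72, 12.19 and 12.53 in HF (-1.76 ± 0.26). The nucleases Dnase1l2 (-2.35 ± 0.41) and Trex2 (-1.42 ± 0.19) and the endoribonuclease-like Endou (-2.19 ± 0.39) were among the 6. The member higher in SG was Ctss, cathepsin S (1.17 ± 0.33), a call lost without any 1 of the SG arrays 1 and 2, any 1 HF array or IFE replicate 2 (adjusted p up to 0.178).

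Of 330 solute carriers, 21 were higher in HF and 3 in SG, with 29 and 3 without SG replicate 3, beside 3.3% and 1.81% of all genes. Slc40a1, the iron exporter ferroportin, measured 6.89, 6.87 and 8.39 in SG and 10.50, 9.85 and 10.44 in HF (-2.88 ± 0.36, adjusted p = 0.000723). Slc39a8, a zinc, manganese and iron importer, measured 6.24, 6.83 and 7.32 against 9.09, 8.54 and 8.89 (-2.04 ± 0.27). Slc7a11, the cystine importer, measured 6.71, 6.59 and 6.85 against 8.15, 8.20 and 8.15 (-1.45 ± 0.15). Slc49a4 (-1.77 ± 0.17) and Slco5a1 (-2.38 ± 0.32) completed the 5 with the smallest p. In each of these the follicle arrays lay above all gland arrays. The SG count was 1 without HF replicate 1 or HF replicate 3.

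Most members of the signalling lists were not called. Of 59 Wnt genes, 5 were higher in HF and 0 in SG (8.47% called, beside 5.11% of all genes), with 6 and 0 without SG replicate 3; the HF count was 3 without SG replicate 1, SG replicate 2 or HF replicate 3. With the letter block 1 was called. Wnt5a, a ligand that often signals without β-catenin, measured 5.97, 5.84 and 6.94 in SG and 8.32, 7.72 and 8.08 in HF (-1.79 ± 0.28; -0.77 on the brightest probe set, adjusted p = 0.0598). Nkd2, a feedback inhibitor of Wnt signalling, was -1.85 ± 0.32, with 10 of its 12 probe sets higher in HF and 2 higher in SG. On the brightest probe set alone it was 0.67 (adjusted p = 0.239). Of 45 genes of the BMP, activin and TGF-β pathways, 5 were higher in HF and 1 in SG (13.3% called), with 7 and 1 without SG replicate 3. Beside Bmp4 they were the ligand Bmp8a (-1.80 ± 0.22), the receptor Acvr1 (-1.25 ± 0.23) and the inhibitors Smad7 (-1.18 ± 0.19) and Bambi (-1.44 ± 0.36). Acvr1 had an adjusted p of 0.061 with the letter block, and Bmp8a was -0.797 on the brightest probe set. The call of Bambi was lost with the letter block (adjusted p = 0.0687), on the brightest probe set (0.606) and without SG replicate 1, SG replicate 2 or any 1 HF array (up to 0.114). The member higher in SG was Tgfbi (1.34 ± 0.37), a call lost without SG replicate 2, SG replicate 3, HF replicate 1, HF replicate 3 or either of IFE replicates 2 and 3, where it reached an adjusted p of 0.158.

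Of 14 EGF receptors and ligands, 1 was higher in SG and 2 in HF (21.4% called), with 1 and 3 without SG replicate 3, and the list held ligands that went opposite ways. Nrg4, a ligand of ERBB4, measured 9.07, 8.88 and 8.77 in SG and 5.82, 6.97 and 6.11 in HF (2.60 ± 0.32, 6.08-fold, adjusted p = 0.000681). Tgfa, a ligand of EGFR, measured 7.02, 7.50 and 7.40 against 8.99, 8.25 and 9.18 (-1.50 ± 0.24). Nrg1, a ligand of ERBB3 and ERBB4, measured 6.91, 6.80 and 7.41 against 8.32, 8.18 and 8.45 (-1.27 ± 0.21). On the brightest probe set Tgfa was -0.29 and Nrg1 -0.54 (adjusted p = 0.371 and 0.15). Of 24 Notch genes, 1 was higher in HF, the receptor Notch2 (-1.19 ± 0.17), with 2 without SG replicate 3; the list's share of 4.17% called is near that of all genes. In limma, with or without SG replicate 3, 0 of 16 hedgehog and 0 of 31 FGF genes were called; on the brightest probe set 1 hedgehog gene was higher in HF, and 2 FGF genes were higher in SG and 1 in HF.

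Innate immune genes went both ways: of 29, 4 were higher in HF and 2 in SG (20.7% called, beside 5.11% of all genes). Il1a measured 5.85, 6.20 and 6.43 in SG and 8.30, 8.18 and 8.11 in HF (-2.04 ± 0.26). S100a7a measured 4.08, 5.45 and 5.89 against 8.53, 7.97 and 8.63 (-3.23 ± 0.40). The alarmins Il33 (1.66 ± 0.30) and Tslp (1.42 ± 0.29) were higher in SG. Tslp had an adjusted p of 0.0941 with the letter block. On the brightest probe set Il33 was 0.27 (adjusted p = 0.456) and S100a7a -0.54 (adjusted p = 0.183). The HF count was 2 without SG replicate 1, SG replicate 2, HF replicate 2 or HF replicate 3, and the counts were 6 in HF and 2 in SG without SG replicate 3.

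Markers of other cell types that a piece could hold were called in some lists and not in others, beside 5.11% of all genes. Of 17 dermal papilla, 11 endothelial, 7 Schwann cell and 11 skeletal muscle markers, 0 were called, with or without SG replicate 3. Of 10 smooth muscle markers, 2 were higher in HF (3 without SG replicate 3), Acta2 (-1.23 ± 0.19) and Smtn (-1.60 ± 0.22), and their summed intensity was 1212 to 1489 in SG and 1792 to 1967 in HF. Of 14 adipocyte markers (28.6% called), 2 were higher in HF (Fabp4 and Lipe) and 2 in SG (Lpl and Gpd1), with the same counts without SG replicate 3, genes that cells other than adipocytes use as well; on the brightest probe set Gpd1 was 0.69 (adjusted p = 0.0525) and Smtn -0.91. Of 14 Langerhans cell and class II genes (21.4% called, median 0.58), 3 were higher in SG with or without SG replicate 3: H2-Aa (1.76 ± 0.26), H2-Eb1 (1.38 ± 0.25) and Cd74 (1.28 ± 0.27), which load and present peptides. H2-Eb1 was 0.38 on the brightest probe set (adjusted p = 0.278), and the call of Cd74 was lost without SG replicate 2 or HF replicate 1 (adjusted p up to 0.0555). Their list's summed intensity was 2637 to 3204 in SG and 2056 to 2434 in HF. Of 14 melanocyte markers, 1 was called, Mitf, higher in HF (-1.35 ± 0.17), also without SG replicate 3; 4 were higher in SG without SG replicate 1, and 2 after quantile normalization or median centring. Of 19 fibroblast markers (21.1% called) 3 were higher in SG and 1 in HF, with 3 and 3 without SG replicate 3; the SG count was 1 without HF replicate 1 and 0 without HF replicate 3, and the HF count was 0 without SG replicate 1, SG replicate 2, HF replicate 1 or HF replicate 3. Of 11 T cell markers 1 was higher in SG, Thy1 (1.93 ± 0.41), with or without SG replicate 3; it was lost without HF replicate 1 or HF replicate 3 (adjusted p up to 0.0593). The part of these cells in the results above was not tested.

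**Figure D4:**
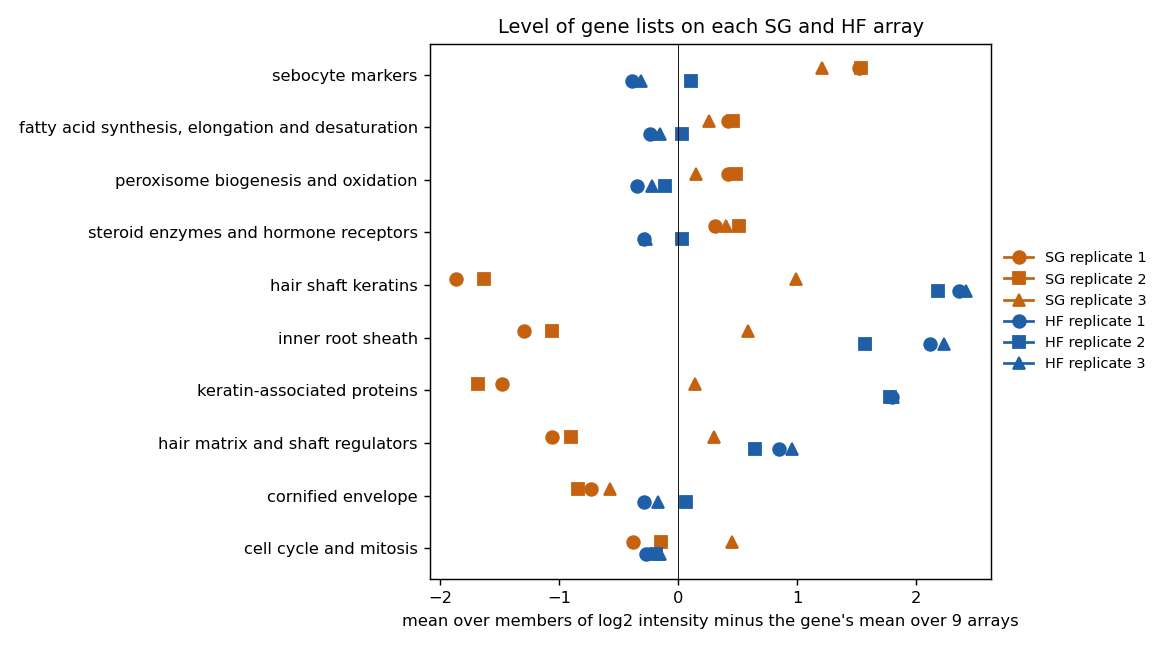
Mean over each list's members of the log2 intensity minus the gene's mean over the 9 arrays (horizontal axis), for each SG (orange) and HF (blue) array, with circles, squares and triangles for replicates 1, 2 and 3. For hair shaft keratins SG replicates 1 and 2 lie at -1.87 and -1.63 and SG replicate 3 at 0.99, against 2.19 to 2.42 in HF; for sebocyte markers the 3 SG arrays lie between 1.21 and 1.54.

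SG replicate 3 held more of the follicle genes than the other glands, and somewhat less of the sebocyte markers. The summed intensity of the hair shaft keratins was 3144, 3139 and 13537 on the SG arrays and 31383, 28341 and 33050 on the HF arrays. That of the inner root sheath list was 2870, 3382 and 13089 against 42508, 25006 and 45032. The keratin-associated proteins summed to 6576, 5551 and 10610 against 49734, 28864 and 47300. In all 3 lists replicate 3 was the highest gland array and below each follicle array. The IFE arrays summed to 15625 to 18610 for shaft keratins and 18133 to 21287 for keratin-associated proteins, above SG replicate 3. For the inner root sheath list they summed to 4972 to 5756, below it. The sums of shaft keratins and keratin-associated proteins are therefore not particular to the follicle. The sebocyte markers summed to 39727, 45529 and 35030 in SG and to 8546, 13718 and 9221 in HF, so that replicate 3 was the lowest gland array there and far above the follicle.

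The place of an array between its own group and the other compartment was measured for genes called without that array, with 0 at the mean of the remaining arrays of its own group and 1 at the mean of the other group on the log2 scale. SG replicate 3 lay at a median of 0.45 (quartiles 0.28 to 0.66) over 693 genes higher in HF, and at 0.32 (0.11 to 0.52) over 301 genes higher in SG. On the linear scale these medians were 0.305 and 0.458. For 42.9% of the 693 genes it was past the midpoint towards the follicle. HF replicate 2 lay at 0.34 (0.21 to 0.51) over 325 genes higher in SG and at 0.16 over 458 genes higher in HF. The other 4 arrays had medians between -0.17 and 0.09.

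On the log2 scale the place of SG replicate 3 was not the same for every kind of gene. A log2 place depends on the size of a gene's difference, so lists with unlike differences are not directly comparable. Over all called genes the linear scale turned the order, with 0.305 for genes higher in HF and 0.458 for genes higher in SG. Linear places were not taken by list. The median log2 place of SG replicate 3 was 0.60 over 8 hair shaft keratins (0.40 to 0.99) and 0.58 over 11 inner root sheath genes. It was 0.42 over 9 keratin-associated proteins and 0.67 over 14 matrix and shaft regulators. Among lists of the gland it ran from 0.07 over 4 lipid droplet genes and 0.11 over 15 sebocyte markers, through 0.32 over 9 cholesterol genes, 0.40 over 18 genes of fatty acid synthesis, 0.41 over 8 ester enzymes and 0.42 over 9 PPAR genes, to 0.55 over 13 peroxisomal genes. For cell cycle genes replicate 3 was outside both groups: their summed intensity was 6824, 7958 and 12304 on the SG arrays and 7547 to 8189 on the HF arrays. The fibroblast markers summed to 3882, 4743 and 7084 in SG and 3889 to 3995 in HF, and the melanocyte markers to 1757, 2674 and 3562 against 1979 to 2158. Whether follicle pieces were carried into this pool was not tested beyond these values, since the labels do not describe the dissection of single arrays.

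**Figure D5:**
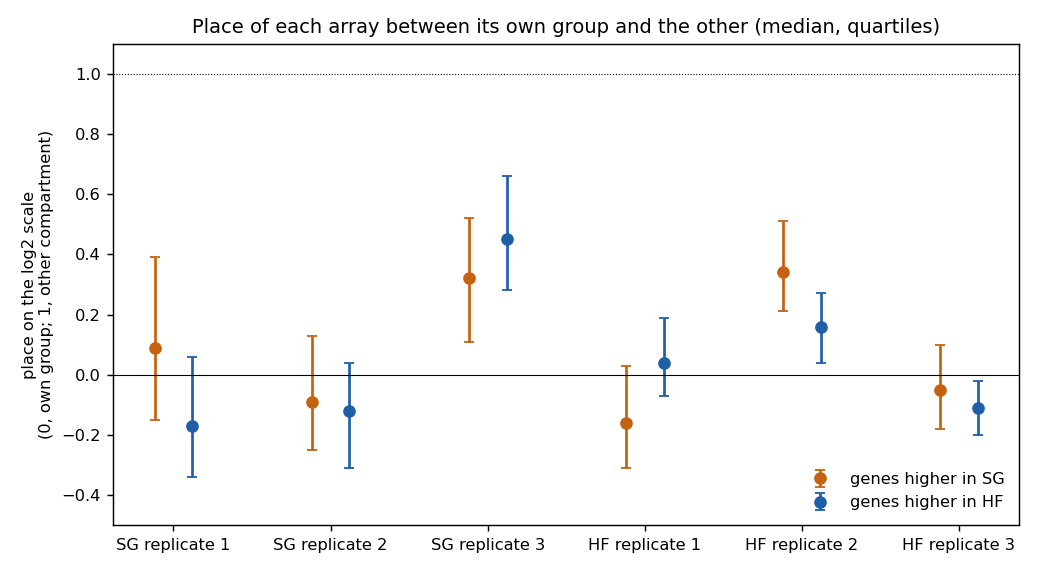
Median place of each SG and HF array between its own group (0) and the other compartment (1) on the log2 scale (vertical axis), over genes called without that array; bars span the quartiles, orange stands for genes higher in SG and blue for genes higher in HF. SG replicate 3 lies at 0.45 for genes higher in HF and 0.32 for genes higher in SG, and HF replicate 2 at 0.34 for genes higher in SG.

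The level in interfollicular epidermis, given as a mean log2 intensity over 3 arrays, placed some of the called genes differently from the pair compared here. Gsta4 averaged 9.60 in IFE, beside 9.65 to 9.77 in SG and 7.23 to 8.70 in HF. Slc40a1 averaged 8.17, between the gland and the follicle. Prr9 averaged 11.08 in IFE, at the lowest follicle value, while Far2 averaged 6.88 and Cd36 4.01, below both compartments. Abca12 averaged 10.80, above both. The levels of these single genes are a description. The same model also set SG and HF each against IFE, at the same thresholds. Of the 479 genes higher in HF, 188 (39.2%) were also called above IFE in HF. For 174 of them (36.3%) SG was called below IFE. Of the 262 genes higher in SG, 142 (54.2%) were also called above IFE in SG. For 40 of them (15.3%) HF was called below IFE.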

How the data were processed

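Exon arrays measured 9 pooled dissections of mouse tail epidermis, 3 per compartment. The authors deposited probe set intensities, whose processing names RMA, Affymetrix Power Tools and mm9, per the submitters' processing notes; no versions are given there. The deposited values ran from 2.5 to 30815, a linear intensity scale, and no background or detection calls were used, so differences of dim genes may be compressed. Here, log2 was taken, and a gene's value was the median over its probe sets with 1 gene symbol. Of 154736 probe sets, 146964 had 1 symbol, 1060 several and 6712 none, which gave 14507 genes (median of 8 probe sets, 911 genes with 1). In all, 1754 old symbols were updated, and 14472 genes were found in the RefSeq table.

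A model with the 3 compartments was fitted over all genes on the 9 arrays with limma 3.58.1 (lmFit, eBayes) in R 4.3.3, without a block, and SG was set against HF. The median standard error of a log2 difference was 0.207. The number of arrays limits the precision. Genes were called at a Benjamini-Hochberg adjusted p below 0.05 and a log2 difference of at least 1. On simulated data for this comparison over 14507 genes, 85 of 100 genes changed by 1.5 on the log2 scale and 97 of 100 changed by 3 were recovered, with 5 false calls.

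The compared samples, the 44 gene lists and the tests were chosen with earlier results of these data known. Genes were named by rule: the 15 largest rises and 15 largest falls among called genes, and in each list 5 or fewer called members by smallest p plus at most 3 called against its direction; others are marked, or named as members of a run of neighbouring genes or as a list's members not called. Deviations of same-numbered SG and HF arrays from their group means correlated at 0.015, 0.036 and 0.095. Alternatives were the scaling, the probe set summary, filters, thresholds, blocks, weights and leaving out arrays.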

Additional observations from a re-analysis of the deposited data

How the results depend on the processing

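Of the 144 called genes that the naming rule gives, 68 kept their call and 76 lost it under at least 1 of the other settings that apply to them, the changed log2 thresholds not counted. The array-name letter as a block gave 392 changed genes, 119 higher in SG and 273 higher in HF. Under it 54 of the 144 named genes lost their call. The letters of SG replicate 1 and HF replicate 1 occur on no other array. This block therefore set only SG replicates 2 and 3 against HF replicates 2 and 3. Among these are SG replicate 3 and HF replicate 2, the arrays that lay furthest towards the other compartment. Their median places were 0.45 over genes higher in HF and 0.34 over genes higher in SG. Their part in the lost calls was not tested. Without a log2 threshold the counts were 1373, 473 and 900, and at a log2 difference of at least 2 they were 137, 46 and 91. Leaving out 1 array at a time gave 535 (without HF replicate 3) to 994 changed genes (without SG replicate 3), 185 to 325 higher in SG and 350 to 693 higher in HF. On the brightest probe set of each gene, 958 genes changed, 431 of them among the 741, 40 named genes lost their call and 3 turned: Acoxl (-0.504), Awat2 (-0.114) and Nkd2 (0.667). Quantile normalization gave 805 and median centring 758 changed genes. Deviations of same-numbered SG and HF arrays correlated at 0.095 or less, which does not settle whether they belong together. The labels do not say so either, but the SG and HF arrays of replicate 2 share an array-name letter, as do those of replicate 3. With the replicate block 781 genes changed, 282 higher in SG and 499 higher in HF, and no named gene lost its call. Array weights gave 920 calls, the SG and HF arrays alone 713, the brighter genes alone 555, at least 4 probe sets per gene 656, and a trended robust fit 738. The cause of these changes was not tested. Detection over background was not used, so limits at low intensity are unknown.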

Other observations

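Beside the 5.11% of all genes called, further lists lay below or above that share. Of 64 mitochondrial respiratory chain genes, 2 were higher in SG and 0 in HF (3.12%; 1 and 0 without SG replicate 3), while the list's median was 0.39 and SG lay wholly above HF for 29 of the 64, beside 12.1% of all genes. Its summed intensity was 81657 to 108384 in SG and 66403 to 72878 in HF. The called members were Ndufb5 (1.04 ± 0.20), a subunit of complex I, and Atp5c1 (1.01 ± 0.22), a subunit of ATP synthase. The call of Ndufb5 was lost without SG replicate 2 or HF replicate 1, and that of Atp5c1 without SG replicate 2, SG replicate 3, HF replicate 1 or HF replicate 3 (adjusted p up to 0.0532). Of 39 cell cycle genes, 1 was higher in SG with or without SG replicate 3 (2.56%): Tyms, the thymidylate synthase (1.29 ± 0.24; adjusted p = 0.061 with the array-name letter as a block), at 7.61, 7.92 and 7.84 in SG and 6.50, 6.83 and 6.17 in HF. In limma 0 of 16 basal keratinocyte genes were called, also without SG replicate 3, and 1 was higher in HF on the brightest probe set.

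Of 27 immediate early genes (7.41% called), 2 were higher in HF, Ppp1r15a (-1.58 ± 0.22) and Btg2 (-1.13 ± 0.19), and 5 without SG replicate 3. Btg2 lost its call after median centring, where its difference was under 1 on the log2 scale and 1 member of the list was called, without SG replicate 3 and HF replicate 2 together (-0.986), and on the brightest probe set (-0.855). Of 9 heat shock genes (11.1% called), 1 was higher in HF; without SG replicate 3, 2 were higher in HF and 1 in SG. The member called on all arrays, Hspb8, a small chaperone, measured 7.69, 8.83 and 9.98 in SG and 10.74, 10.87 and 10.90 in HF (adjusted p = 0.0098, SE 0.41), a call lost with the letter block (-1.48, adjusted p = 0.0541). Of 31 Hox genes (6.45% called), 1 was higher in each direction, also without SG replicate 3: Hoxc13 in HF and Hoxa9 (1.00 ± 0.21) in SG, the latter lost without SG replicate 2 or HF replicate 1 (adjusted p up to 0.0535). Among 7772 probe sets with no or several gene symbols, tested with all probe sets, 137 were higher in SG and 295 in HF (5.56%), beside 5.78% of all probe sets.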
